A study of Mus musculus with 72 samples.

Results

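The 10 genes described here mark the airway epithelium, 5 of them club and other secretory cells (Scgb1a1, Scgb3a1, Scgb3a2, Cyp2f2 and Bpifa1) and 5 ciliated cells (Foxj1, Dnah5, Dnah9, Ccdc153 and Tppp3). They were taken by name from the tables of lung tumour and lung, with the other organs as background, after matching the Ensembl identifiers of the tables to GENCODE M21 symbols. They are 10 of 36047 mouse gene identifiers, of which 35968 received a symbol. All mice were of the EGFR DEL19 genotype, a transgenic mouse of lung cancer, and all received doxycycline for 25 days before treatment. In each mouse 1 of 3 DNA circuits was then given into a vein at 10 mg/kg every 2 days, 7 times in all, and tissue was taken on day 14. CMV-GE11-siRE carries an siRNA against EGFR together with GE11, a peptide that binds EGFR. CMV-siRE carries the siRNA without that peptide, and CMV-scrR, the control, carries a scrambled RNA. Each circuit had 4 libraries in each of 6 tissues, 72 libraries in all. The tissues were tumour and lung, described here, and thymus, spleen, kidney and liver as background. Mice that had neither the transgene nor doxycycline are not among these groups, and the sources used here do not give the age of the mice, the promoter of the transgene or the cells it acts in.

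Club cells are the dome-shaped secretory cells of the bronchioles. They release secretoglobins and surfactant proteins, metabolise inhaled chemicals through cytochrome P450 enzymes and renew the airway lining after injury. Ciliated cells carry motile cilia that move mucus out of the lung: dynein motors in outer and inner arms bend the cilium, and the transcription factor Foxj1 switches on the genes that build it. In a bulk sample, fewer cells of a type and less RNA per cell cannot be told apart, so every value below is a level in the tissue as a whole.

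Values are the authors' normalized values, taken to be gene counts divided by a size factor per library, with each tissue scaled on its own. With M as the prefix mega, approximate depths were 12.2 M to 20.9 M per library, and the summed values of a library were 5.87 M to 43.8 M for tumours and 16.9 M to 21.4 M for the 5 organs. Mitochondrially encoded genes took 8.04% to 73.1% of the column total in the tumours, with 20.6% ± 12.5 for CMV-GE11-siRE, 60.1% ± 11.6 for CMV-siRE and 68.6% ± 3.77 for CMV-scrR (SD, n = 4 each), against 0.558% to 12.7% in the 5 organs. The human EGFR transcript, the target of the siRNA, was at 39.2 to 132.5 in CMV-GE11-siRE tumours, 452 to 1324 in CMV-siRE tumours and 1992 to 4025 in CMV-scrR tumours, so the ranges followed the labels. Sftpc, the surfactant protein of alveolar type 2 cells, was at 35101 or more in every tumour and lung library and at 110.6 or less in every library of the other organs. Albumin marked the liver libraries, Umod the kidney and Rag1 the thymus, each at a higher level there than in any library of another tissue. Rag1, which immature thymocytes express, also reached 1376 in 1 lung library, against a lung median of 16.2. The labels do not tie the 4 libraries of a group to separate animals, and p-values therefore measure the spread between these samples, which may be technical.

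In GRCm38 coordinates of GENCODE M21, the secretory genes lie on separate chromosomes. Scgb1a1 (ENSMUSG00000024653.2), the main secreted protein of club cells, spans 9083636 to 9087958 of chromosome 19 on the minus strand. Scgb3a1 (ENSMUSG00000064057.12) and Scgb3a2 (ENSMUSG00000038791.14), smaller secretoglobins, span 49663610 to 49665118 of chromosome 11 and 43764289 to 43767399 of chromosome 18, both on the plus strand. Cyp2f2 (ENSMUSG00000052974.8), a cytochrome P450 that makes naphthalene toxic to mouse club cells, spans 27119909 to 27133660 of chromosome 7 on the plus strand. Bpifa1 (ENSMUSG00000027483.7), a secreted defence protein of the upper airways also called SPLUNC1, spans 154142880 to 154149219 of chromosome 2 on the plus strand.

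Among the ciliated genes, Foxj1 (ENSMUSG00000034227.7) spans 116330704 to 116335399 and Dnah9 (ENSMUSG00000056752.16) spans 65831282 to 66168551, both on the minus strand of chromosome 11. Dnah5 (ENSMUSG00000022262.8), which with Dnah9 encodes the motor heavy chains of the outer dynein arm, spans 28203752 to 28472052 of chromosome 15 on the plus strand. Ccdc153 (ENSMUSG00000070306.3), a coiled-coil gene used as a marker of motile cilia, spans 44240676 to 44247306 of chromosome 9 on the plus strand. Tppp3 (ENSMUSG00000014846.12), which encodes a tubulin-binding protein, spans 105467493 to 105471526 of chromosome 8 on the minus strand. All 10 are annotated as protein coding, and their merged exons run from 476 bases (Scgb1a1) to 15949 bases (Dnah9).

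RefSeq promoters of GRCm38.p6 were at hand for 6 of the 10 genes. Their starts are those of RefSeq, which can differ from the GENCODE starts above. For Cyp2f2 the printed stretch ends at 27119954, beyond the GENCODE start at 27119909. The 250 bases before the start are printed for Cyp2f2, Scgb3a1 and Bpifa1, secretory genes whose ranges stood apart between groups in lung (Cyp2f2 and Scgb3a1) or that passed the test in the tumours (Bpifa1), and for Ccdc153, a ciliated gene whose promoter holds a paired RFX motif. All 4 lie on the plus strand. Capitals mark the motif found.
Cyp2f2, chr7:27119705-27119954: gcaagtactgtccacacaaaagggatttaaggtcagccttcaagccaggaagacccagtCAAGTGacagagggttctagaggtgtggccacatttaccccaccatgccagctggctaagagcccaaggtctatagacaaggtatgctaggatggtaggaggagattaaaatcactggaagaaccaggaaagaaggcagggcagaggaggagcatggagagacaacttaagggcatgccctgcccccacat
Scgb3a1, chr11:49663345-49663594: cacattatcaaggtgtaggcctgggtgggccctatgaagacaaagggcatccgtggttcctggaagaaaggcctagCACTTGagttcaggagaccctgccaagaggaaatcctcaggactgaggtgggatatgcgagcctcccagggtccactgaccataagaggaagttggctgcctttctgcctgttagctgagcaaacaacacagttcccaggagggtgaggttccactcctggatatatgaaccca
Bpifa1, chr2:154142630-154142879: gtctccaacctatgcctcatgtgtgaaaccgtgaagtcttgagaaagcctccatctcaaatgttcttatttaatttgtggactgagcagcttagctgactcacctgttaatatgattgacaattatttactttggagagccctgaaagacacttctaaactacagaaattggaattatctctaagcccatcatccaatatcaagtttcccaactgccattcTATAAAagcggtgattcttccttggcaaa
Ccdc153, chr9:44240427-44240676: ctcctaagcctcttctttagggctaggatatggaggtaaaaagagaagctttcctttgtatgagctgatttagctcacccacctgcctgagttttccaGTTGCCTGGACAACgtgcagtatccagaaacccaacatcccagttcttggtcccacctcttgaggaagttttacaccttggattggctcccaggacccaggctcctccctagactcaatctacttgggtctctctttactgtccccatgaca
The capitals of Cyp2f2 and Scgb3a1 are the NKX2-1 core CAAGTG, which begins 191 bases before the start of Cyp2f2 and, read on the other strand as CACTTG, 174 bases before that of Scgb3a1. This core stood in 13.6% of 32817 RefSeq promoters, taken from 250 bases before to 50 bases after the start and searched on both strands. Bpifa1 held a TATA motif, TATAAA, 29 bases before its start, as did 13.6% of promoters. Ccdc153 held a match to the paired RFX motif (the X-box), in capitals above, 152 bases before its start, which 0.673% of promoters held. The single RFX motif GTTGCC, in 12.5% of promoters, lies within that match. Of the other promoters at hand, that of Dnah5 held the forkhead motif TGTTTA, as 13.4% did, and that of Dnah9 held none of the 5 motifs. These matches describe letters only, and binding was not measured.

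In lung, the comparison set the airway genes under each siRNA circuit against those under the scrambled control, and the siRNA circuits against each other. No member passed the test in any of the 3 lung comparisons (limma on log2(value + 1), Benjamini-Hochberg adjusted p under 0.05). For CMV-GE11-siRE against CMV-scrR, 0 of 9 members tested were called, against 0.0% of 16165 genes, with 2 members and 1277 genes at an unadjusted p under 0.05. For CMV-siRE against CMV-scrR, 0 of 9 were called against 1.41% of genes, with 3 members and 2847 genes at an unadjusted p under 0.05. For CMV-GE11-siRE against CMV-siRE, 0 of 9 were called against 0.0619% of genes, and no member had an unadjusted p under 0.05, beside 1612 genes. Adjusted p-values of the members ran from 0.0907 to 0.997 over the 3 limma comparisons.

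Scgb1a1 was the most abundant member in lung in every library. Its 4 lung values were 156571, 168763, 153881 and 206837 with CMV-GE11-siRE, 200051, 272451, 144011 and 178224 with CMV-siRE, and 180259, 170294, 150362 and 207055 with CMV-scrR. The ranges of the 3 circuits overlapped, with means of 171513 ± 24423, 198684 ± 54317 and 176993 ± 23583 (SD, n = 4 each) in that order of circuits. The log2 difference was -0.05 ± 0.20 (SE) for CMV-GE11-siRE against CMV-scrR, with a 95% interval of -0.48 to 0.39, and 0.14 ± 0.20 for CMV-siRE against CMV-scrR, with an interval of -0.30 to 0.57. Scgb3a2 likewise lay at 3298 to 6312 in CMV-GE11-siRE lungs, 3495 to 5096 in CMV-siRE lungs and 3442 to 6271 in CMV-scrR lungs, and its log2 differences were between -0.03 and 0.00.

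Cyp2f2 was lower in CMV-siRE lungs than in CMV-scrR lungs without passing the test. Its lung values were 30539, 23697, 35941 and 29495 with CMV-GE11-siRE, 29168, 29806, 21381 and 26963 with CMV-siRE, and 36356, 36946, 34424 and 43370.3 with CMV-scrR. Every CMV-siRE library lay below every CMV-scrR library. In that comparison 1.41% of genes were called and 12.5% had ranges that did not overlap. CMV-GE11-siRE overlapped CMV-scrR through replicate 3. Between CMV-siRE and CMV-scrR lungs the log2 difference was -0.50 ± 0.14 (SE, 95% interval -0.81 to -0.19), with an adjusted p of 0.0907 by limma. That of CMV-GE11-siRE from CMV-scrR was -0.35 ± 0.14 (95% interval -0.65 to -0.04), with an adjusted p of 0.56 by limma. Relative to Scgb1a1, the other abundant product of the same cells, Cyp2f2 stood at 140.4 to 233.6 per 1000 in CMV-GE11-siRE lungs, 109.4 to 151 in CMV-siRE lungs and 202 to 229 in CMV-scrR lungs. The ratio of CMV-siRE lungs did not overlap that of CMV-scrR lungs. By a two-sided exact permutation test its p was 0.029, the smallest that 4 against 4 allows, and 0.514 adjusted over 54 such tests, so the ratio did not pass.

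Scgb3a1 was a minor transcript in lung and the most variable of the members tested there. It read 54.5, 63.3, 1404 and 74.8 in CMV-GE11-siRE lungs, 42.9, 77.9, 87.3 and 32.0 in CMV-siRE lungs, and 16.7, 15.6, 10.2 and 20.2 in CMV-scrR lungs. All 8 libraries of the siRNA circuits lay above all 4 CMV-scrR libraries, in comparisons in which 0.0% (CMV-GE11-siRE) and 1.41% (CMV-siRE) of genes were called. Ranges did not overlap for 4.73% and 12.5% of lung genes in these comparisons. The log2 difference from CMV-scrR was 3.10 ± 0.80 (95% interval 1.39 to 4.82, adjusted p = 0.242 by limma) for CMV-GE11-siRE and 1.79 ± 0.80 (95% interval 0.08 to 3.51, adjusted p = 0.263 by limma) for CMV-siRE. Without CMV-GE11-siRE replicate 3 the CMV-GE11-siRE difference was 1.99 ± 0.36 with an adjusted p of 0.198 by limma. In a limma fit of the 8 CMV-siRE and CMV-scrR libraries alone, which takes no spread from replicate 3, the CMV-siRE difference had an adjusted p of 0.0386 and passed. No share of all genes called is given here for that fit, and the 1.41% belongs to the fit of 12 libraries. Bpifa1 was nearly absent from lung, reaching a value of 10 in 3 of 12 libraries, and was not tested there. It read 3.24, 0, 225 and 8.82 in CMV-GE11-siRE lungs, 10.2, 78.6, 1.39 and 1.74 in CMV-siRE lungs, and 8.39, 0.875, 1.53 and 7.50 in CMV-scrR lungs.

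The lung ranges of the ciliated genes overlapped between the 3 circuits. Foxj1 lay at 1062 to 2217 in CMV-GE11-siRE lungs, 1255 to 1961 in CMV-siRE lungs and 1460.5 to 2043 in CMV-scrR lungs. The outer-arm motor genes were at a comparable level to each other: Dnah5 averaged 433 ± 117, 478 ± 26.1 and 389 ± 111, and Dnah9 averaged 394 ± 123, 445 ± 76.8 and 480.1 ± 88.7 (SD, n = 4 each) with CMV-GE11-siRE, CMV-siRE and CMV-scrR in that order. Tppp3 averaged 5375 ± 607 in CMV-GE11-siRE lungs, 6527 ± 1682 in CMV-siRE lungs and 5877 ± 1025 in CMV-scrR lungs. Ccdc153 had the largest log2 difference among them. It read 730.0, 786, 919 and 998 in CMV-GE11-siRE lungs, 906, 1438, 966 and 881 in CMV-siRE lungs, and 788, 800.1, 553 and 909 in CMV-scrR lungs. CMV-siRE and CMV-scrR lungs overlapped at 881 to 909, and the log2 difference of 0.45 ± 0.18 (95% interval 0.07 to 0.83) had an adjusted p of 0.207 by limma. Over the 5 ciliated genes the 95% intervals of the log2 difference from CMV-scrR reached down to -0.76 (Dnah9) and up to 0.83 (Ccdc153).

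**Figure D1:**
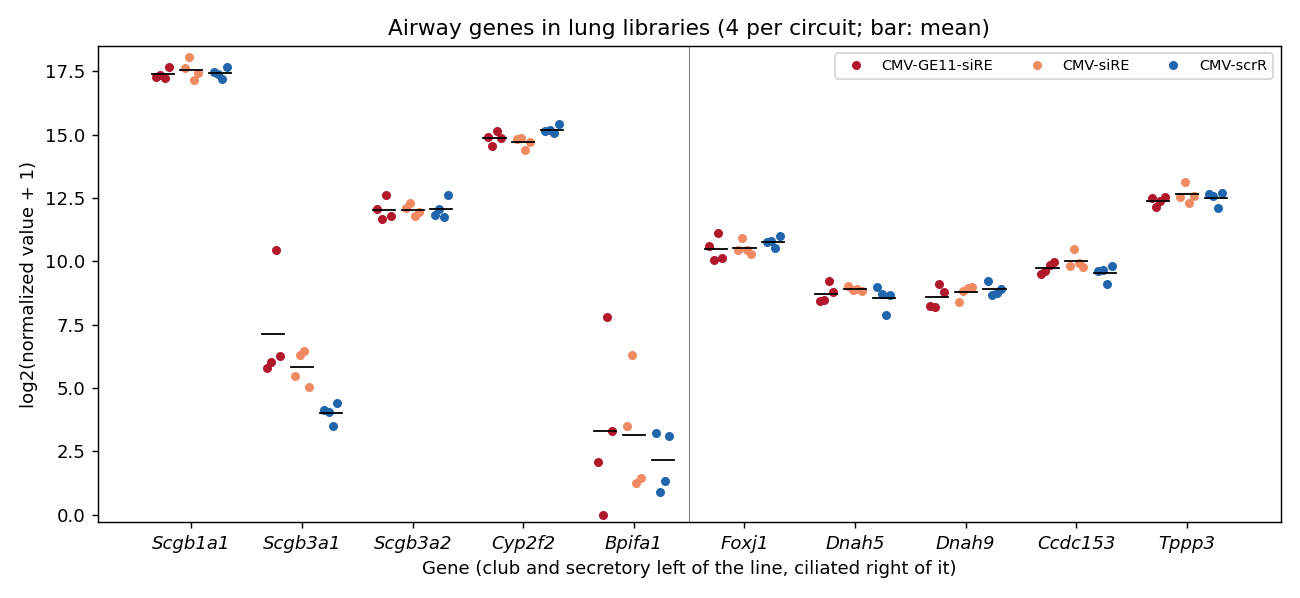
Normalized value + 1 on a log2 axis for each of the 10 genes in the 12 lung libraries, with 4 points per circuit and a bar at the circuit's mean. Scgb3a1 of CMV-GE11-siRE replicate 3, at 1404, stands above the other libraries, and the CMV-siRE points of Cyp2f2 lie below the CMV-scrR points.

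CMV-GE11-siRE lung replicate 3 carried some secretory genes of the larger airways at levels not seen in the other 11 lung libraries. The genes that follow, other than the members, were chosen after their values were seen. Scgb3a1 was at 1404 in this library against 10.2 to 87.3 in the others, and Bpifa1 at 225 against 0 to 78.6. Bpifb1, a gland-associated relative of Bpifa1, was at 1865 against 0 to 27.1. The gel-forming mucins Muc5b and Muc5ac were at 2965 against 11 to 272 and at 187 against 7.53 to 31.8. Reg3g, a secreted antimicrobial lectin, was at 265 against 0 to 5.04, and Tff2, a trefoil peptide of mucous cells, was at 91.6 against 0 to 9.56. Scgb1a1, at 153881, was not raised in it, and Krt5 of basal cells was at 0 against 0 to 3.96 in the others. Other secretory genes looked at were not raised either, with Lyz1 at 4090 against 3753 to 9680 and Ltf at 471 against 49.2 to 877. Lypd2 was at 258 against 46.9 to 170. The summed airway smooth muscle list was at 17804 in this library against 10345 to 13630 in the other 11, and the tracheal and chondrocyte list was at 914 against 420 to 747. Their part in the Scgb3a1 difference was not tested.

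**Figure D2:**
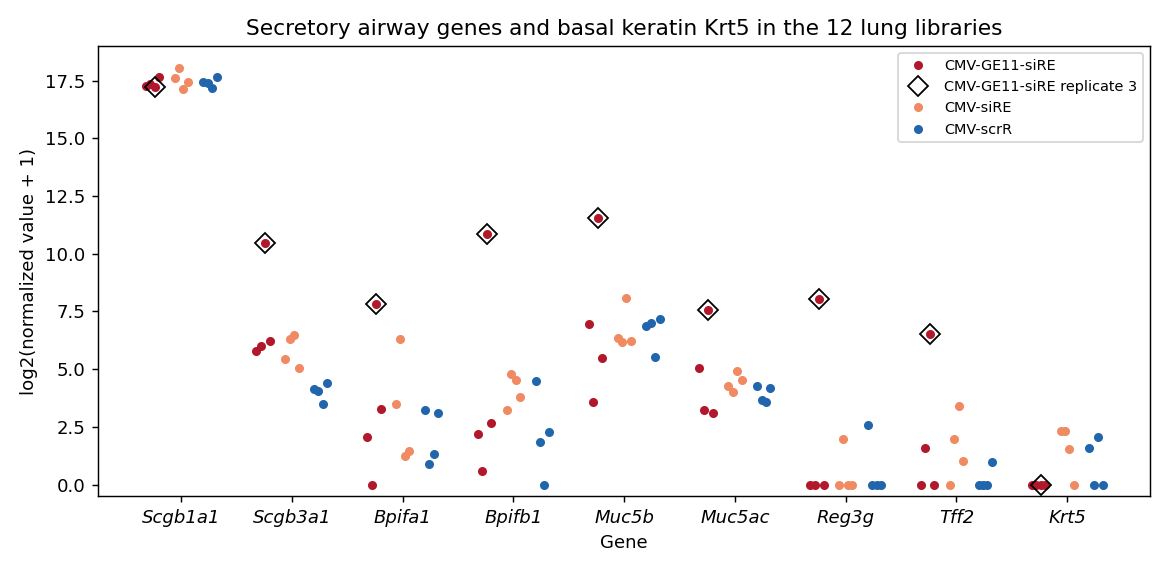
Normalized value + 1 on a log2 axis of secretory genes in the 12 lung libraries, by circuit, with CMV-GE11-siRE replicate 3 drawn as a diamond. Bpifb1 at 1865 and Muc5b at 2965 in that library stand above the 27.1 and 272 reached elsewhere, while Scgb1a1 at 153881 lies within the range of the others.

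Beyond the 10 members, 220 further airway genes in 7 lists were examined, of which 4 are in more than 1 list. Of the secretory genes and their transcription factors 49 of 54 could be tested in lung, and of the ciliated genes 157 of 167. None was called by limma in any of the 3 lung comparisons. For CMV-GE11-siRE against CMV-scrR, 4 of the 49 and 8 of the 157 had an unadjusted p under 0.05. For CMV-siRE against CMV-scrR these were 9 of 49 and 20 of 157, and for CMV-GE11-siRE against CMV-siRE 4 of 49 and 10 of 157. Over all 16165 genes tested in lung the counts were 1277, 2847 and 1612 in the same order of comparisons. The median log2 difference lay between -0.08 and 0.07 for the secretory genes and between -0.13 and 0.12 for the ciliated genes over the 3 comparisons.

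In the tumours, 1 of the 10 members passed the test in 1 of the 3 comparisons. It was Bpifa1, lower in CMV-GE11-siRE tumours than in CMV-scrR tumours, a comparison in which 41.9% of 14044 genes were called, so that 1 of 10 members is below the share of all genes. For CMV-siRE against CMV-scrR, 0 of 10 members were called by limma against 0.256% of genes. For CMV-GE11-siRE against CMV-siRE, 0 of 10 were called by limma against 0.0214% of genes. After rounding, no member had an unadjusted p under 0.05 in either of these, beside 3004 and 3677 of 14044 genes. Foxj1 was at the threshold, at 0.05 by limma for CMV-siRE against CMV-scrR. Adjusted p-values by limma were 0.234 to 0.677 for CMV-siRE against CMV-scrR and 0.198 to 0.883 for CMV-GE11-siRE against CMV-siRE.

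The tumour values of Bpifa1 were 72.1, 0, 0.644 and 63.5 with CMV-GE11-siRE, 60.3, 42.2, 94.4 and 15.5 with CMV-siRE, and 48.8, 286, 159.9 and 36.3 with CMV-scrR. Replicates 2 and 3 of CMV-GE11-siRE were at or near 0, and its replicates 1 and 4 lay within the CMV-scrR range. The log2 difference of CMV-GE11-siRE from CMV-scrR was -3.36 ± 1.27 (95% interval -6.08 to -0.64), with an adjusted p of 0.0464 by limma. The call rested on single libraries and settings: it was lost when CMV-GE11-siRE replicate 2 or 3, or CMV-scrR replicate 1, 2 or 3, was left out. With a pseudocount of 0.1 the difference was -4.46 and the adjusted p 0.0509 by limma. Beside it, the goblet and submucosal gland list summed to 79.2 to 576 in CMV-GE11-siRE tumours, 69.7 to 759 in CMV-siRE tumours and 305 to 6429 in CMV-scrR tumours, and its part in the Bpifa1 difference was not tested.

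Scgb1a1 ranged 42.1-fold over the 12 tumour libraries. Its values were 14849, 944, 15357 and 12172 with CMV-GE11-siRE, 615, 17676, 3108 and 8096 with CMV-siRE, and 15067, 25886, 5000.4 and 5084 with CMV-scrR. All 3 circuits overlapped, and the lowest library of each circuit lay at least 5.18-fold below its highest. The log2 difference from CMV-scrR was -0.48 ± 1.03 (95% interval -2.68 to 1.73) for CMV-GE11-siRE and -1.29 ± 1.03 (95% interval -3.50 to 0.91) for CMV-siRE, and neither passed.

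Scgb3a2 followed Scgb1a1 from tumour to tumour more closely than the other members did. It read 361, 47.8, 317 and 489.9 in CMV-GE11-siRE tumours, 31.6, 569.9, 115 and 244 in CMV-siRE tumours, and 383, 1828, 189 and 193 in CMV-scrR tumours. The ratio to Scgb1a1 stayed between 20.7 and 70.6 per 1000, a 3.42-fold range, while Scgb3a2 itself ranged 57.8-fold. Cyp2f2 was at 328 to 898 in CMV-GE11-siRE tumours, 213 to 1643 in CMV-siRE tumours and 241 to 2658 in CMV-scrR tumours. Its ratio to Scgb1a1 was highest in CMV-GE11-siRE replicate 2 and CMV-siRE replicate 1, the tumours with the least Scgb1a1, at 348 and 826 per 1000. The other 3 tumours of each of these circuits had 55.7 to 60.5 and 68.5 to 92.9 per 1000, against 47.3 to 140.6 per 1000 in CMV-scrR tumours. On the log2(value + 1) scale Scgb3a1 had the widest spread within a circuit of the members, with a standard deviation of 2.30 beside 2.17 for Bpifa1. It read 1044, 22.0, 11.6 and 921 with CMV-GE11-siRE, 61.5, 55.9, 188 and 19.8 with CMV-siRE, and 74.9, 996, 354 and 129 with CMV-scrR.

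Among the ciliated genes in the tumours, Foxj1 read 92.6, 59.3, 136 and 115 with CMV-GE11-siRE, 5.65, 403, 10.6 and 49.6 with CMV-siRE, and 203, 323, 83.9 and 85.0 with CMV-scrR. In 3 of 4 CMV-siRE tumours it was below every CMV-scrR tumour, and in replicate 2 it was above all of them. Between CMV-siRE and CMV-scrR tumours the log2 difference was -2.06 ± 0.96, with an adjusted p of 0.234 by limma. Without CMV-siRE replicate 2, the library above all CMV-scrR tumours, it was -3.23 ± 0.65 and passed, with an adjusted p of 0.0263 by limma. Of the 8 fits that each left out 1 library, it passed in no other, and no share of all genes called is given here for them. Dnah5 read 31.8, 21.6, 45.8 and 43.1 in CMV-GE11-siRE tumours, 0, 73.9, 0 and 18.1 in CMV-siRE tumours, and 72.2, 52.2, 7.42 and 16.1 in CMV-scrR tumours, so that its 2 values of 0 were both in CMV-siRE tumours. Its partner Dnah9 was at 3.09 in CMV-siRE replicate 1 and at 65.0 to 89.0 in the other 3 CMV-siRE tumours, against 10.3 to 54.6 in CMV-GE11-siRE tumours and 7.00 to 110.0 in CMV-scrR tumours. CMV-siRE replicate 3 thus had 89.0 of Dnah9 with Dnah5 and Foxj1 at 0 and 10.6. The step between low values, the column total over the approximate depth, differed between tumours. Total and depth were 43.8 M and 16.5 M in CMV-siRE replicate 3, and 12.2 M and 15.1 M in CMV-siRE replicate 1. They were 5.87 M to 9.48 M and 17.1 M to 19.6 M in CMV-GE11-siRE tumours. A value at or near 0 was therefore coarser in CMV-siRE replicate 3 than in CMV-GE11-siRE tumours.

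Ccdc153 averaged 95.3 ± 46.7 in CMV-GE11-siRE tumours, 96.2 ± 83.8 in CMV-siRE tumours and 144 ± 84.1 in CMV-scrR tumours (SD, n = 4 each). Tppp3 read 509.7, 515, 711 and 692 in CMV-GE11-siRE tumours, 244, 1487, 445 and 1360.2 in CMV-siRE tumours, and 1159, 1418, 788 and 1014 in CMV-scrR tumours. All CMV-GE11-siRE tumours lay below all CMV-scrR tumours in this gene, in the comparison in which 41.9% of genes were called and 45.2% did not overlap. The log2 difference was -0.84 ± 0.46 (95% interval -1.83 to 0.16), with an adjusted p of 0.159 by limma over the 12 libraries. In a fit of the 8 libraries compared, without the wide spread of the CMV-siRE tumours, its adjusted p was 0.00755 by limma and it passed. The share of all genes called in that fit is not given here, and the 41.9% belongs to the fit of 12 libraries. Over the 12 libraries scaled without mitochondrial genes the Tppp3 difference was -0.08 (adjusted p = 0.917 by limma). Scaled to the column total it was 1.25 (adjusted p = 0.0473 by limma), below the all-gene median of 2.12.

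**Figure D3:**
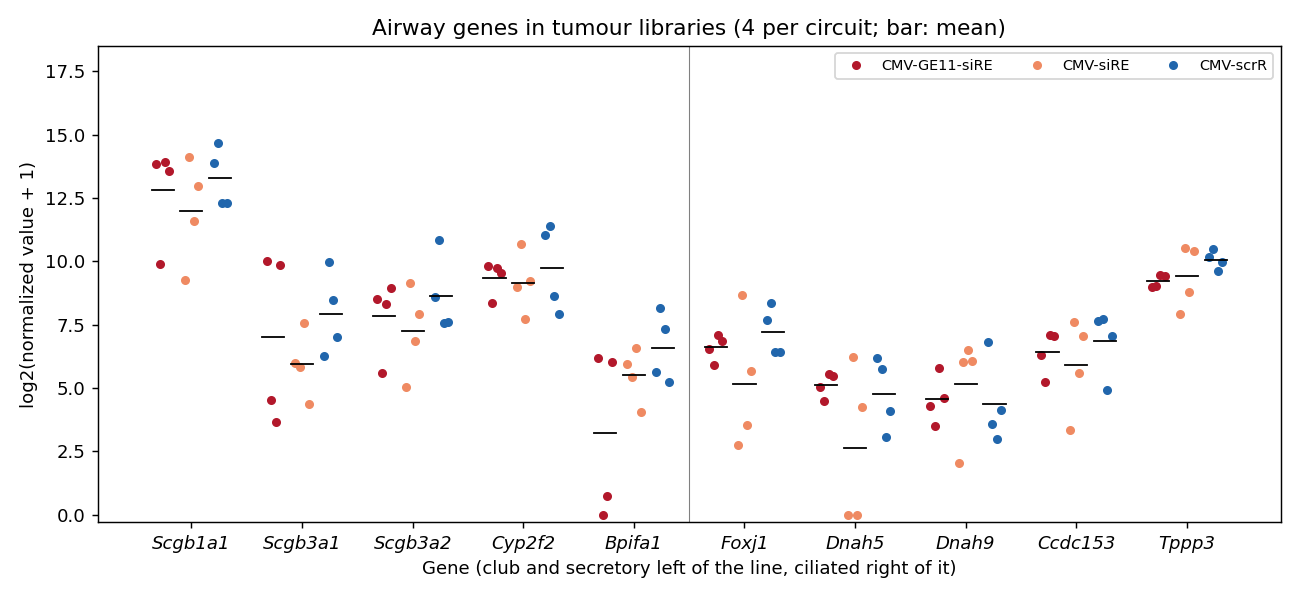
Normalized value + 1 on a log2 axis for each of the 10 genes in the 12 tumour libraries, with 4 points per circuit and a bar at the circuit's mean. Scgb1a1 spreads from 615 to 25886, the circuits overlap in every gene except Tppp3 of CMV-GE11-siRE and CMV-scrR, and 2 CMV-siRE points of Dnah5 lie at 0.

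**Figure D4:**
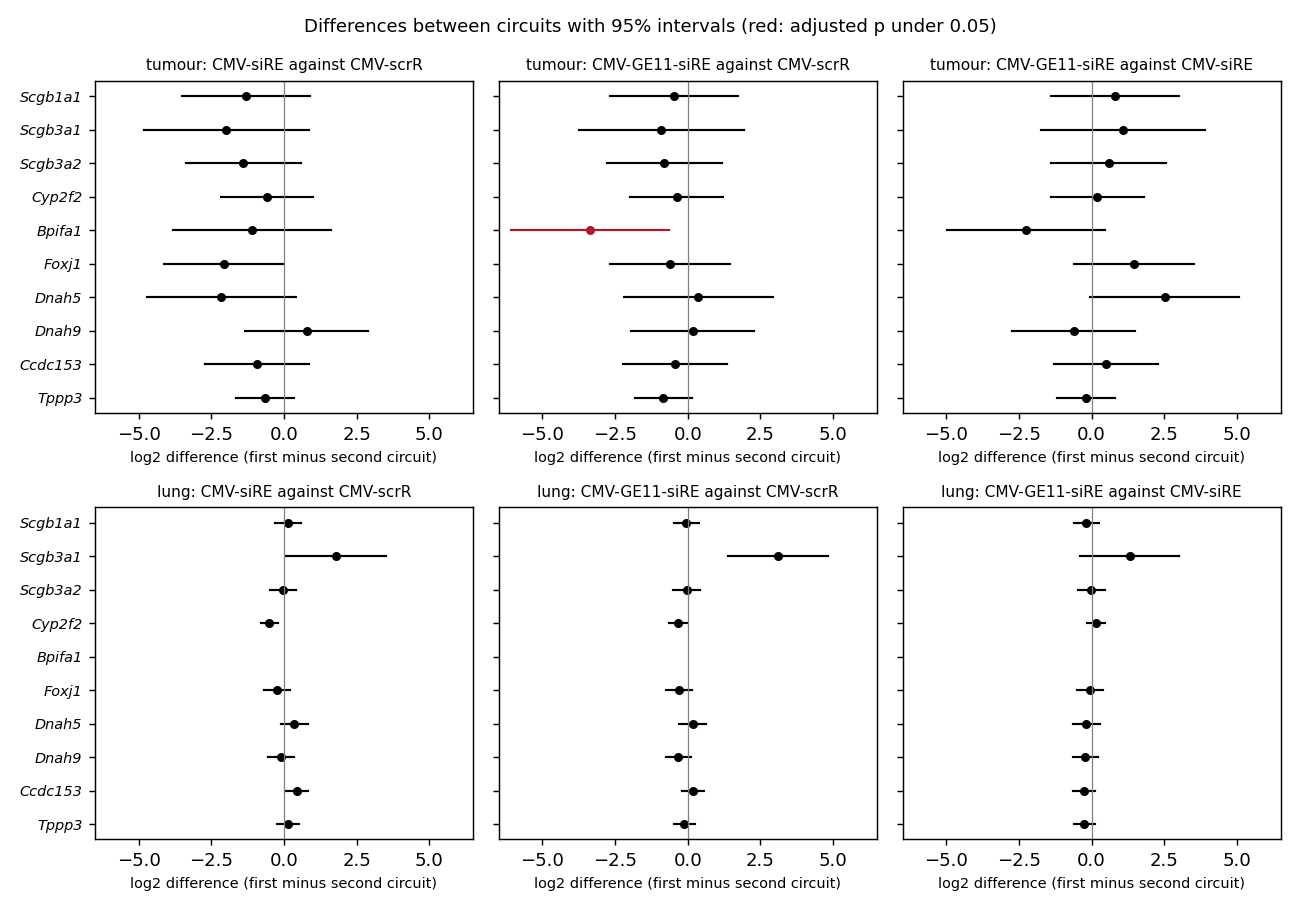
Log2 difference in normalized value + 1 for each member in the 3 comparisons, in tumour and in lung, with 95% intervals from limma and calls at an adjusted p under 0.05 in red. The 1 call is Bpifa1 in CMV-GE11-siRE against CMV-scrR tumours at -3.36, and each gene drawn in both tissues has a wider interval in tumour than in lung.

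The direction of the tumour differences depended on how the libraries were scaled, and the mitochondrial share differed between circuits. With the authors' scaling, the median log2 difference over all genes was 0.06 for CMV-GE11-siRE against CMV-scrR, and 8 of 10 members lay below 0. Scaled to the column total, that median was 2.12, 9 of 10 members lay above 0, and again 8 of 10 lay below the all-gene median. Dnah9 at 2.13 (adjusted p = 0.039 by limma) and Tppp3 at 1.25 (adjusted p = 0.0473 by limma) were then called, 2 of 10 members beside 81.7% of all genes, with Tppp3 below the all-gene median. For CMV-GE11-siRE against CMV-siRE the column total moved the all-gene median to 1.64, 7 of 10 members lay above it, and 6 of 10 were called (Scgb1a1, Scgb3a2, Foxj1, Dnah5, Ccdc153 and Tppp3), beside 76.7% of all genes. For CMV-siRE against CMV-scrR it moved to 0.48, with 9 of 10 members below it, as with the authors' scaling. The mitochondrial share and the circuit cannot be told apart for CMV-GE11-siRE, whose tumours had the lower shares.

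The members varied more between tumours of the same circuit than most genes did. The standard deviation of log2(value + 1) within a circuit was 0.78 for Tppp3, 1.28 for Cyp2f2 and 1.42 to 2.30 for the other 8 members, against a median of 0.49 over all tested genes. In lung the members were at 0.21 to 0.36 apart from Scgb3a1 at 1.36, against a median of 0.22. The same tumours were often low or high in several members. CMV-GE11-siRE replicate 2 was the lowest of its circuit in 8 of 10 members, and replicate 3 was the highest in all 5 ciliated members. CMV-siRE replicate 1 was the lowest of its circuit in 7 members and replicate 2 the highest in 7. CMV-scrR replicate 2 was the highest of its circuit in 8 members and replicate 3 the lowest in 7.

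Levels of other cell types differed between the same tumours. The alveolar type 2 list summed to 391853 to 601696 in CMV-GE11-siRE tumours, 135769 to 745786 in CMV-siRE tumours and 72590.0 to 154248 in CMV-scrR tumours. Of its 15 genes, 12 rose and 2 fell in CMV-GE11-siRE tumours against CMV-scrR tumours by limma. In that comparison 41.9% of all genes were called, 3107 higher and 2783 lower. With the mitochondrial share as a covariate, 0 of 14044 genes were called. CMV-siRE replicate 1, low in 7 members, had the highest sum of the alveolar type 2 list at 745786. The airway smooth muscle list summed to 468 to 917 in CMV-GE11-siRE tumours, 431 to 1277 in CMV-siRE tumours and 973 to 4528 in CMV-scrR tumours. CMV-scrR replicate 2, high in 8 members, had both the highest smooth muscle sum, 4528, and the highest goblet and gland sum, 6429. The part of these cell types in the members' levels was not tested.

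The further club and secretory genes included 36 that could be tested in tumour. In CMV-GE11-siRE tumours against CMV-scrR tumours 4 of them fell and 1 rose by limma, a smaller share than the 41.9% of all genes called, with a median log2 difference of -0.76 beside 0.06 over all genes. Those that fell included 3 detoxifying enzymes of this list. Aldh1a1, an aldehyde dehydrogenase, was at -3.22 ± 0.77 (adjusted p = 0.00533 by limma). Fmo2, a flavin monooxygenase, was at -3.36 ± 0.61 and Gsta3, a glutathione transferase, at -3.26 ± 0.69. Of the 5 secretory members 1, Bpifa1, was called in this comparison, with Scgb1a1 at -0.48 and Cyp2f2 at -0.385. Aldh1a1 read 333, 428, 307 and 470.1 in CMV-GE11-siRE tumours, 272, 3694, 501 and 2627 in CMV-siRE tumours, and 2131, 13501, 3545 and 1515 in CMV-scrR tumours. All CMV-GE11-siRE tumours were thus below all CMV-scrR tumours, with CMV-siRE tumours on both sides. Sec14l3, a lipid-binding protein of the airway that is also in a ciliated list, fell by 1.89 on the log2 scale. Sftpd, a collectin that alveolar type 2 cells also secrete, rose by 2.41 ± 0.43. Of the transcription factors of the secretory lineage 6 of 13 rose and none fell, near the 41.9% of all genes called (3107 higher and 2783 lower), with a median of 0.97: Nkx2-1 at 2.15 ± 0.38, Grhl2 at 1.83, Elf3 at 1.45, Foxa2 at 1.35, Klf5 at 1.27 and Hes1 at 1.22. Nkx2-1 read 4794, 5925, 6334 and 5575 in CMV-GE11-siRE tumours, 6381, 2554, 3023 and 3887 in CMV-siRE tumours, and 1214, 543, 1755 and 2229.9 in CMV-scrR tumours, so all tumours of both siRNA circuits lay above all CMV-scrR tumours. Ranges did not overlap for 45.2% of genes in CMV-GE11-siRE against CMV-scrR tumours and for 7.78% in CMV-siRE against CMV-scrR tumours. Nkx2-1, Foxa2 and Klf5 are also active in alveolar type 2 cells. Scaled to the column total, all 6 factors were called as higher, as were 11799 of 14516 genes. On that scale Aldh1a1, Fmo2 and Gsta3 were at -1.13, -1.27 and -1.18 beside an all-gene median of 2.12, and were not called. Scaled without mitochondrial genes they were at -2.46, -2.60 and -2.50 beside a median of 0.81. There they remained called as lower (adjusted p = 0.0266, 0.00697 and 0.0147 by limma).

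The ciliated gene lists had few calls in the tumours. In CMV-GE11-siRE against CMV-scrR tumours, 5 of 138 ciliated genes rose and 6 fell, 7.97% beside the 41.9% of all genes, and 22.4% of the 49 secretory genes were called. Of 11 tested genes of the ciliated transcription programme 3 rose, namely Ccno, which drives centriole amplification, at 2.23 ± 0.70, Rfx1 at 1.26 and the cell cycle factor E2f4 at 0.90. Of 23 other dynein arm genes 1 had an unadjusted p under 0.05, beside 7093 of all 14044 genes. None of the 23 was called, and their median was 0.05. Of the 3 most abundant of them, Dynll1 and Dynlt1b, which other cells also use, were at -0.25 and -0.86, and Dnah10, an inner-arm motor, was at 1.06. Ruvbl1, a chaperone of arm assembly that other cells also use, was the 1 of 13 assembly genes to fall, at -1.16. Gas8, of the nexin link, was the 1 of 23 in its list to fall, at -0.84. Among 70 other ciliated markers Cfap52 and Hdc rose, at 1.47 and 1.65, while Ift57, Tuba1a, Tppp and Sec14l3 fell, at -1.43, -2.19, -2.87 and -1.89. Scaled to the column total, none of these 6 falling genes remained called as lower, and Gas8 was called as higher at 1.24, below the all-gene median of 2.12. Scaled without mitochondrial genes, Tuba1a remained called as lower, at -1.425 (adjusted p = 0.0116 by limma), and the other falling genes were not called. For CMV-siRE against CMV-scrR tumours 1 of 138 ciliated genes was called, Hdc, which makes histamine and is strong in mast cells and basophils, at 1.59 (adjusted p = 0.049 by limma). For CMV-GE11-siRE against CMV-siRE tumours none was called by limma. An unadjusted p under 0.05 was reached by 9 of 138 ciliated and 7 of 49 secretory genes, beside 3677 of all 14044 genes. The median log2 difference of the ciliated genes was -0.05 for CMV-GE11-siRE against CMV-scrR, -0.60 for CMV-siRE against CMV-scrR (34 of 138 above 0) and 0.54 for CMV-GE11-siRE against CMV-siRE (109 of 138 above 0). That of the secretory genes was -0.10, -0.10 and 0.07 in the same comparisons, beside 0.06, 0.00 and 0.05 over all genes.

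Set beside each other as parts per 1000000 of the non-mitochondrial total (ppm), most airway genes were lower in the tumours than in lung. The tables were normalized separately, so this difference is a description with no test. The median of Scgb1a1 was 1439 ppm in tumours and 8889 ppm in lung, a lung to tumour ratio of 6.18. The ratio was 14.7 for Cyp2f2, the gene with the highest, 5.35 for Scgb3a2, 5.63 for Foxj1, 5.90 for Dnah9, 4.80 for Dnah5, 2.93 for Ccdc153 and 2.70 for Tppp3. Scgb3a1 and Bpifa1 ran the other way, at 10.7 ppm in tumours against 2.51 in lung and at 7.01 against 0.276, with overlapping ranges. The ranges of tumours and lung were apart for Scgb1a1, Cyp2f2, Dnah5, Dnah9 and Tppp3, and they overlapped for the other 5 members.

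In ppm per kilobase of exon, Scgb1a1 was first in both tissues, with a median of 3023 in tumours and 18675 in lung. Behind it came Tppp3 (60.8), Cyp2f2 (52.3) and Scgb3a2 (44.3) in tumours, and Cyp2f2 (768), Scgb3a2 (237) and Tppp3 (164) in lung. Dnah5 and Dnah9 were at 0.306 and 0.244 in tumours and at 1.47 and 1.44 in lung on this scale, below every other member in the tumours and above Bpifa1 alone in lung. Bpifa1 was last in lung at 0.179 and eighth of 10 in tumours at 4.54.

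In the other organs the members served as background. The secretoglobins were at 59.8 or less in every library of the other 4 organs, Bpifa1 was at 0 in all 12 liver and all 12 kidney libraries, and Scgb3a2 was at 0 in all 12 kidney libraries. Cyp2f2 was the exception, at 12065 to 30183 in liver, where its 646 to 1572 ppm overlapped the 1122 to 2230.1 ppm of lung. In thymus, Bpifa1 was at 36.9 to 247, Dnah9 at 85.5 to 224, Ccdc153 at 106 to 187 and Foxj1 at 23.2 to 133. Thymus CMV-GE11-siRE replicate 4 had the highest Cyp2f2 (273), Bpifa1 (247) and Foxj1 (133) of the 12 thymus libraries. That library also had the lowest mitochondrial share, 0.558% against 1.64% to 1.92% in the other 11. Its basal cell list summed to 23640.1 against 6681 to 11609 in the other 11, and its thymic epithelium list to 89377 against 46753 to 66816. The part of the mitochondrial share and of these lists was not tested.

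**Figure D5:**
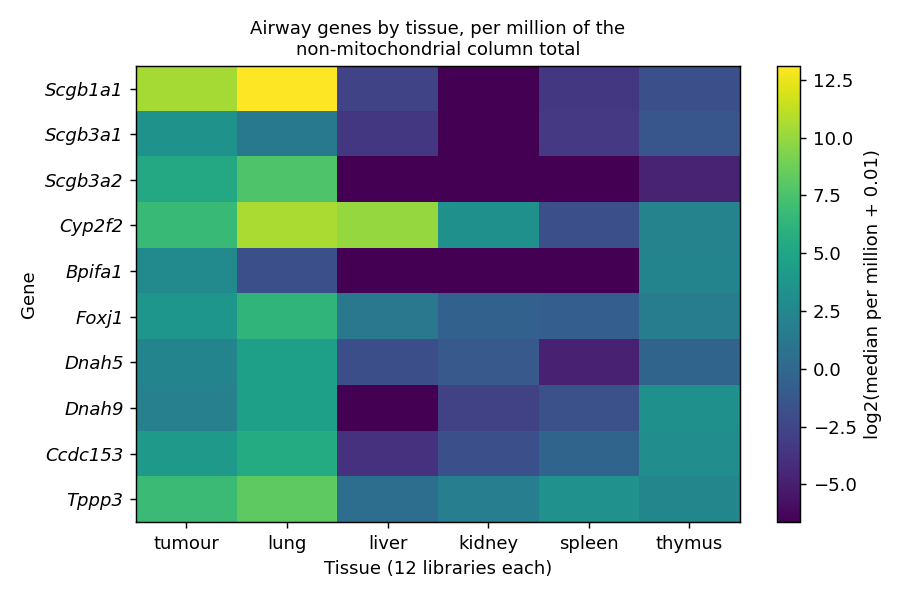
Heat map of the median level of each member in the 6 tissues, as log2 of the ppm value plus 0.01, with members down the side and tissues across. Lung is the highest tissue for 8 of 10 members, Cyp2f2 is also high in liver, and Dnah9, Ccdc153 and Bpifa1 are present in thymus.

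Across the 4 other organs, members that passed the filter numbered 3 in liver, 4 in kidney, 4 in spleen and 7 in thymus. In liver, none was called by limma for CMV-GE11-siRE against CMV-scrR (background 4.23% of genes), CMV-siRE against CMV-scrR (4.04%) or CMV-GE11-siRE against CMV-siRE (0.0069%). Cyp2f2 was lower in CMV-siRE livers than in CMV-scrR livers by a log2 difference of -0.55 ± 0.18, with an adjusted p of 0.0999 by limma, with 18273, 15393, 16066 and 12065 in CMV-siRE livers against 16622, 25787, 23937 and 24511 in CMV-scrR livers. CMV-siRE replicate 1 lay above CMV-scrR replicate 1, so the ranges overlapped. Without replicate 1 of each group the difference was -0.78 ± 0.15 and passed, with an adjusted p of 0.0332 by limma. The 4.04% belongs to the fit of all libraries, and no share of all genes is given here without replicate 1. In kidney 0.0% of genes and no member were called in any comparison, with 1218, 1486 and 599 genes at an unadjusted p under 0.05 for CMV-GE11-siRE against CMV-scrR, CMV-siRE against CMV-scrR and CMV-GE11-siRE against CMV-siRE. Kidney Foxj1 was at 11.2 to 32.1 with CMV-GE11-siRE and 9.89 to 38.6 with CMV-siRE, all above the 7.85 to 9.21 of CMV-scrR, without passing (adjusted p = 0.52 and 0.498 by limma). In these 2 comparisons 5.93% and 18.3% of kidney genes did not overlap. In thymus no member was called by limma, beside 0.0% of genes for CMV-GE11-siRE against CMV-scrR, 0.00609% for CMV-siRE against CMV-scrR and 0.0% for CMV-GE11-siRE against CMV-siRE.

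Spleen Tppp3 was the 1 member called in these organs, in 2 comparisons that share the 4 CMV-scrR libraries. It read 172, 207, 137 and 173 in CMV-GE11-siRE spleens, 139.8, 158, 162 and 314 in CMV-siRE spleens, and 763, 302, 500.4 and 428 in CMV-scrR spleens. It fell by 1.46 on the log2 scale for CMV-GE11-siRE against CMV-scrR (SE 0.28, adjusted p = 0.0151 by limma), with no overlap. In that comparison 5.76% of genes were called and 13.7% did not overlap. For CMV-siRE against CMV-scrR it fell by 1.36 (SE 0.28, adjusted p = 0.0155 by limma), with an overlap through CMV-siRE replicate 4 and 4.61% of genes called. It was not called for CMV-GE11-siRE against CMV-siRE, where 0.112% of genes were. Both calls were lost without replicate 1, at log2 differences of -1.24 and -0.998 (adjusted p = 0.108 and 0.125 by limma), and without replicate 3, at -1.33 and -1.27 (adjusted p = 0.127 and 0.115 by limma). They were also lost after the mitochondrial share was added as a covariate, at -0.93 and -0.60 (adjusted p = 0.848 and 0.889 by limma), a fit in which 0 and 1 of 16015 genes were called, against 923 and 739 without it. The mitochondrial share was 1.59% to 1.74% in CMV-scrR spleens and 1.90% to 2.26% in spleens of the siRNA circuits. With no overlap, that fit cannot tell the share from the circuit. The airway smooth muscle list summed to 4682 to 7317 in CMV-GE11-siRE spleens, 4834 to 8654 in CMV-siRE spleens and 7349.8 to 17151 in CMV-scrR spleens. Its relation to Tppp3 from library to library and its part in the Tppp3 difference were not tested.

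The genes whose pattern over the 12 libraries of a tissue was most like the members were found by the correlation of log2 values with the mean standardized level of the 5 ciliated members or of the secretory members that passed the filter. In lung, Tekt4 (Pearson r = 0.946), Nme9 (0.898), Nme5 (0.895), Rptn (0.89), Rp1 (0.887) and Cfap206 (0.883) were most like the ciliated members. Tekt4, a tektin of the ciliary microtubules, Nme9, Nme5 and Cfap206 were in the fixed ciliated lists. In the tumours, Dnaaf3 (0.959), which assembles dynein arms, Enkur (0.946), Dnali1 (0.94), an inner-arm light chain, Ttll9 (0.928), Fam92b (0.926) and Cd244a (0.925) were most like them. For the secretory members these were Tcte1 (0.939), Pxmp2 (0.911), Sox2 (0.896), Barx2 (0.882), Pinx1 (0.861) and Sept5 (0.852) in lung. They were Cp (0.92), Evc (0.9), Sfrp1 (0.893), Steap3 (0.884), Spon1 (0.883) and Tpm2 (0.883) in the tumours. These correlations are over 12 libraries of 3 circuits that share their scaling, the genes were picked as the highest of all that passed the filter, and they carry no test.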

How the data were processed

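RNA sequencing libraries of 6 mouse tissues were analysed, 72 in all, from total RNA extracted with TRIzol and made into TruSeq libraries, per the labels. The deposited values are a normalized signal per gene. They were read as gene counts divided by a size factor per library, tissue by tissue, which the values do not settle. Per the submitters' processing notes DESeq2 was used. The aligner, counting tool, build and gene annotation were not given in the sources used here. Of the low values of a library, 50.3% to 72.6% were whole multiples of its recurring step, within 0.1 of a step, so counts could not be recovered and no count model was fitted. Approximate depths of 12.2 M to 20.9 M (M, mega), the column total over that step, limit the precision of low values, and no counting interval was attached. No column lay outside the samples.

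Limma 3.58.1 in R 4.3.3 (limma-trend) was fitted to log2(value + 1) of genes that reached 10 in 4 or more of a tissue's 12 libraries, with 1 mean per circuit and Benjamini-Hochberg adjustment over all genes tested at 0.05. Fold changes on this scale understate changes of low genes. It was tested on simulated data first. Groups came from the sample titles. Ratios to Scgb1a1 were compared by exact permutation with scipy 1.17.1, and figures drawn with matplotlib 3.10.9. Levels across tissues are parts per 1000000 (ppm) of the total without mitochondrial genes.

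The members, the 7 gene lists and the 10 marker lists of other cell types were chosen with earlier results of these data known. The text names all members, up to 6 genes per list that passed by adjusted p (or up to 3 most abundant where none passed), and the 6 genes most alike per tissue and cell class. Secretory genes of 1 lung library were chosen after their values were seen. Alternatives were a pseudocount of 0.1, no filter, a fit of only 8 libraries, a block on the replicate number, scaling to the column total with or without mitochondrial genes, the mitochondrial share as a covariate, and leaving out each library. Promoters are from RefSeq (GRCm38.p6), and no promoter is printed for Scgb3a2.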

Additional observations from a re-analysis of the deposited data

Results flagged for a closer look

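Of 111 groups of 4 libraries checked, 6 held a library that stood away from the other 3 by more than Dixon's 95% critical value for 4 samples, and chance flags about 1 in 20 groups. In CMV-GE11-siRE tumour replicate 2, Scgb1a1 was at 944.38, against 12172.0 to 15356.81 in the other 3. In CMV-siRE tumour replicate 1, Dnah9 was at 3.09, against 64.97 to 88.99. In CMV-GE11-siRE lung replicate 3, Scgb3a1 was at 1404.45, against 54.5 to 74.77, and this library also had the highest Bpifb1 and Muc5b of the lung libraries. In CMV-scrR liver replicate 1, Cyp2f2 was at 16622.36, against 23937.4 to 25787.08. In CMV-GE11-siRE kidney replicate 4, Dnah5 was at 1.9, against 14.26 to 18.26. The mitochondrial share of that library was 3.69%, against 9.6% to 12.7% in the other kidney libraries. In CMV-siRE thymus replicate 2, Bpifa1 was at 103.52, against 67.52 to 71.53.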

How the results depend on the processing

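The lung counts of members called stayed at 0 under every alternative run except that the fit of the 8 CMV-siRE and CMV-scrR libraries called 1 (Scgb3a1). The tumour values are the least firm, since the column totals and mitochondrial shares differed most there, and a log2 difference of the members in tumour had a standard error of 0.46 to 1.32, against 0.14 to 0.80 in lung. The cause of the changes that follow was not tested. For CMV-GE11-siRE against CMV-scrR tumours the count of 1 (Bpifa1) became 0 with a pseudocount of 0.1, 0 with no filter, 0 when scaled without mitochondrial genes (adjusted p = 0.106 by limma), 0 with the mitochondrial share added as a covariate (-8.42, adjusted p = 0.99 by limma, with 0 of 14044 genes called against 5890 without it) and 2 when scaled to the column total, beside 81.7% of all genes. It stayed at 1 in the fit of 8 libraries, with Tppp3 called in place of Bpifa1. For CMV-GE11-siRE against CMV-siRE tumours the count was 6 when scaled to the column total, beside 76.7% of all genes. In the other 4 organs the count of 2 (spleen Tppp3) was likewise 0 under that covariate, which in spleen cannot be told apart from CMV-scrR against the siRNA circuits. Leaving out each library gave 0 to 1 members for CMV-siRE against CMV-scrR tumours, 0 to 1 for CMV-GE11-siRE against CMV-scrR tumours and, leaving out each replicate number, 0 to 2 in the 4 organs. Shares of all genes called are not given here for these fits or for the fits of 8 libraries.

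Replicate numbers did not pair the libraries, with correlations of same-numbered libraries of -0.284 to 0.272 and at most 2 of 12 pairs over 0.1 in a tissue. With the replicate number as a block, 0 members were called in CMV-GE11-siRE against CMV-scrR tumours (Bpifa1 adjusted p = 0.0698 by limma), and the other counts of members did not change.

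Of the 57 log2 differences of members in tumour and lung, the sign changed as follows. Scaled to the column total, CMV-GE11-siRE against CMV-scrR tumours had Scgb1a1 at 1.612, Scgb3a1 at 1.151, Scgb3a2 at 1.274, Cyp2f2 at 1.703, Foxj1 at 1.464, Ccdc153 at 1.636 and Tppp3 at 1.254. CMV-GE11-siRE against CMV-siRE tumours had Dnah9 at 0.975 and Tppp3 at 1.415, and lung Scgb3a2 was at 0.003 for CMV-GE11-siRE and 0.01 for CMV-siRE against CMV-scrR. Scaled without mitochondrial genes, CMV-GE11-siRE against CMV-scrR tumours had Scgb1a1 at 0.281, Cyp2f2 at 0.374, Foxj1 at 0.145 and Ccdc153 at 0.322. CMV-GE11-siRE against CMV-siRE tumours had Tppp3 at 0.393, and lung Scgb3a2 was at 0.011 for CMV-GE11-siRE and 0.017 for CMV-siRE against CMV-scrR. With the mitochondrial share as a covariate, CMV-GE11-siRE against CMV-scrR tumours had Dnah5 at -0.082 and Ccdc153 at 0.058. CMV-GE11-siRE against CMV-siRE tumours had Scgb1a1 at -0.916, Scgb3a1 at -1.988, Scgb3a2 at -0.942, Cyp2f2 at -2.076, Dnah9 at 1.65 and Tppp3 at 0.31. In lung this covariate gave Scgb3a2 0.155, Foxj1 0.035 and Ccdc153 -0.103 for CMV-GE11-siRE against CMV-scrR, Scgb1a1 -0.207, Scgb3a2 0.139 and Foxj1 0.051 for CMV-siRE against CMV-scrR, and Scgb3a2 0.016 for CMV-GE11-siRE against CMV-siRE. Mitochondrial shares were 1.74% to 1.98% in CMV-scrR lungs and 2.05% to 2.79% in lungs of the siRNA circuits. Against CMV-scrR, the covariate therefore cannot be told from the circuit in lung.

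Leaving out each library also turned signs. In CMV-GE11-siRE against CMV-scrR tumours the log2 difference ran from -0.847 to 0.494 for Scgb1a1, -1.914 to 0.21 for Scgb3a1, -0.995 to 0.159 for Cyp2f2, -0.203 to 0.837 for Dnah5 and -0.294 to 0.971 for Dnah9. In CMV-GE11-siRE against CMV-siRE tumours it ran from -0.093 to 1.789 for Scgb1a1, -0.146 to 1.338 for Scgb3a2, -0.267 to 0.714 for Cyp2f2, -0.339 to 1.079 for Ccdc153 and -0.687 to 0.181 for Tppp3. In lung it ran from -0.14 to 0.033 for Scgb1a1, -0.231 to 0.149 for Scgb3a2 and -0.057 to 0.307 for Dnah5 in CMV-GE11-siRE against CMV-scrR. It ran from -0.027 to 0.279 for Scgb1a1, -0.136 to 0.153 for Scgb3a2, -0.189 to 0.021 for Dnah9 and -0.025 to 0.252 for Tppp3 in CMV-siRE against CMV-scrR, and from -0.201 to 0.111 for Scgb3a2 and -0.262 to 0.092 for Foxj1 in CMV-GE11-siRE against CMV-siRE. Bpifa1 ran from -4.345 to -2.281 and Foxj1, in CMV-siRE against CMV-scrR tumours, from -3.232 to -1.258, without a change of sign.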
